A study of Homo sapiens with 22 samples.

Results

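The unfolded protein response and the integrated stress response were followed through 34 human genes in HN-6 cells, a line from a head and neck squamous carcinoma. The members are named genes chosen for their known roles, with earlier results of these data known. The list holds 12 amino acid and one-carbon genes and 11 regulators and effectors of the integrated stress response. It also holds 9 folding factors of the endoplasmic reticulum (ER), and the regulators XBP1 and HERPUD1. The members are 34 of 64706 gene symbols in the deposited tables. All 34 had a line in 3 of the 4 tables, and 33 had one in the knockout table, which lists no NUPR1.

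RNA was sequenced from 22 stranded poly(A) libraries in 8 groups, and every group had received human interferon-β at 1000 U/ml for 24 h. SMYD3, a lysine methyltransferase, was removed in the SMYD3 knockout line 5-3, which the labels give as 1 cell line (3 libraries), set against the parental HN-6 cells (3 libraries). It was also lowered for 72 h with the siRNA si1SMYD3, set against a negative control siRNA (3 libraries each), or with the antisense oligonucleotide ASO 081, set against phosphate-buffered saline, PBS (2 libraries each). UHRF1, which recruits the maintenance DNA methyltransferase, was lowered for 72 h with an siRNA, set against its own negative control siRNA (3 libraries each). No group went without interferon-β. Each pair of groups was deposited as a table of its own and was compared within that table.

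In the integrated stress response, kinases that sense stress phosphorylate the translation factor eIF2α, general translation drops, and the transcription factor ATF4 is translated more. ATF4 and its partners then raise genes for amino acid uptake and synthesis, redox defence and feedback control, so ATF4 activity need not show in ATF4 RNA. In the unfolded protein response, the ER sensors PERK, IRE1 and ATF6 respond to misfolded protein: PERK feeds into the same ATF4 branch, while IRE1, through splicing of XBP1 RNA, and ATF6 raise chaperones and degradation factors of the ER. Carcinoma cells are known to draw on both branches when secretion or amino acid supply is strained.

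The 2 branches leave different letters in promoters, and 6 promoters are shown because they carry them next to genes whose values are given further on. RefSeq promoters on GRCh38.p14, from 250 bases before to 50 bases after an annotated start, were found for 30 of the 34 members, 43 promoters in all. Capitals mark, on either strand, the core TGATGNAA of the C/EBP-ATF response element used by ATF4, the ER stress element, CCAAT followed after 9 bases by CCACG, used by ATF6, or the second form of that element, ATTGG followed after 1 base by CCACG. The second form was added after the sequences had been seen, and no matches of different motifs shared a base. HSPA5 is at chr9:125241294-125241593, minus strand, HSP90B1 at chr12:103930160-103930459, plus strand, and CRELD2 at chr22:49918384-49918683, plus strand. HERPUD1 is at chr16:56931892-56932191, plus strand, ASNS at chr7:97872359-97872658, minus strand, and CHAC1 at chr15:40953221-40953520, plus strand. Each sequence reads 5′ to 3′ in the direction of the gene.
HSPA5: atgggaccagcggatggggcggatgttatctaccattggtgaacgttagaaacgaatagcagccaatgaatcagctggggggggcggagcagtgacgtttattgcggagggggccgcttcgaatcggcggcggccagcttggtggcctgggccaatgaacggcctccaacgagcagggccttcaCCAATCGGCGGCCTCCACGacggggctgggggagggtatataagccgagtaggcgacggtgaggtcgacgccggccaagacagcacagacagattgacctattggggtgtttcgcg
HSP90B1: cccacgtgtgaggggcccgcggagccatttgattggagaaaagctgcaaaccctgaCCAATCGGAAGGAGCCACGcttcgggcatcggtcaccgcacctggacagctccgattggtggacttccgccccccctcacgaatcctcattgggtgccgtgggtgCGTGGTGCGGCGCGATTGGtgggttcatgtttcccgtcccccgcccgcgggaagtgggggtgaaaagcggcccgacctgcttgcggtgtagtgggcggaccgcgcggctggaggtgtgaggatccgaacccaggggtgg
CRELD2: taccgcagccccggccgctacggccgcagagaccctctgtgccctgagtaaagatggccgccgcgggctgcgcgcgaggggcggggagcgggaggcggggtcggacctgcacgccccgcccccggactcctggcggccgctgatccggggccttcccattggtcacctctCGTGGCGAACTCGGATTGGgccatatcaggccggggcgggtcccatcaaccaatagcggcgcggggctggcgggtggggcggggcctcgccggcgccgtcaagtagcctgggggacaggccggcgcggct
HERPUD1: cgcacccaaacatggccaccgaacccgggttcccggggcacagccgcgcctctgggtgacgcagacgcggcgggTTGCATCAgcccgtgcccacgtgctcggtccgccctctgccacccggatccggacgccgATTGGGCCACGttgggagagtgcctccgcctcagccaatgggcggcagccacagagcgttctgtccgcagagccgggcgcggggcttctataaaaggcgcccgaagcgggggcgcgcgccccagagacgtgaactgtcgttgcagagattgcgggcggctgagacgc
ASNS: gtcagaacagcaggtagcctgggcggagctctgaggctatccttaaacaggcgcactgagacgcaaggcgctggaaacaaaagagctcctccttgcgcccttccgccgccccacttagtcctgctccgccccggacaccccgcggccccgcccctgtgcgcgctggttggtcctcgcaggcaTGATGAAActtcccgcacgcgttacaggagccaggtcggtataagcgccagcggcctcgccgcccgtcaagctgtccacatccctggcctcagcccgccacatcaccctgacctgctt
CHAC1: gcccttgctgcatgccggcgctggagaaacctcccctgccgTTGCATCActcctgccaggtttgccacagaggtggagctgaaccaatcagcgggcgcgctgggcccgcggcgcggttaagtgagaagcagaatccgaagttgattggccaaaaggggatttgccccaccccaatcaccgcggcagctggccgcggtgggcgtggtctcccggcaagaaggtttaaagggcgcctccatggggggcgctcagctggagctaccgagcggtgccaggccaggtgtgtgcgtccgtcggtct

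The ER stress element was found in 5 of the 9 ER folding genes (HSPA5, HSP90B1 with 2 matches, CRELD2, PDIA6 and CALR) and in XBP1, and in none of the 9 amino acid genes with a promoter. Of all 27305 genes with a RefSeq promoter, 25 held it, or 0.0916%. The C/EBP-ATF core was found in ASNS, SLC3A2, CHAC1 and HERPUD1, 4 of the 30 members, and in 1217 of the 27305 genes, or 4.46%. The second form of the ER stress element was found in HERPUD1 and SDF2L1, and in 19 of the 27305 genes, or 0.0696%, so HERPUD1 holds a motif of each branch. The C/EBP-ATF core of ASNS lay 68 to 61 bases before the start, and the ER stress element of HSPA5 lay 66 to 48 bases before its start. A match is a description of letters and was not tested as a binding site, and these windows do not cover elements farther away.

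**Figure D1:**
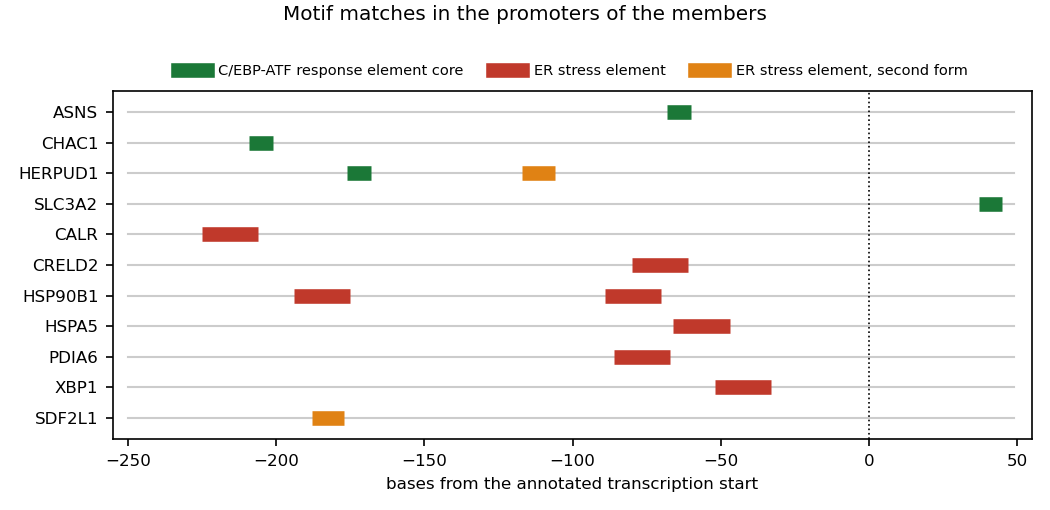
Position of each motif match, in bases from the annotated transcription start (dotted line), in the promoters of the 11 members that hold one. The C/EBP-ATF core (green) is in the 4 upper genes, the ER stress element (red) in the 6 genes under them, with 2 matches in HSP90B1, and its second form (orange) in HERPUD1 and SDF2L1.

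The targeted RNAs were lower in every depleted group. SMYD3 averaged 93.6 ± 18.5 normalized counts in the knockout libraries and 322 ± 18.3 in the parental libraries (SD, n = 3 each), where the values are read counts the authors divided by 1 factor per library. Averages in CPM (read counts scaled to equal library totals) were 2.85 ± 0.207 with the SMYD3 siRNA and 15.1 ± 1.72 with its control, and 3.73 ± 0.639 with the ASO and 21.5 ± 0.686 with PBS. UHRF1 averaged 2.22 ± 0.420 CPM with the UHRF1 siRNA and 64.5 ± 1.73 CPM with its control. UHRF1 RNA differed in direction among the SMYD3 comparisons. It was lower with the SMYD3 siRNA (3.05 and 9.83 CPM, log2 fold change -1.68 ± 0.14), but higher in the knockout (5718 and 4212 normalized counts, 0.44 ± 0.03) and with the ASO (58.6 and 45.8 CPM, 0.36 ± 0.06). SMYD3 RNA was lower with the UHRF1 siRNA (8.40 and 12.5 CPM, -0.57 ± 0.09). Libraries held between 24783605 and 62921144 reads in genes. Of the markers of a squamous epithelium, KRT5, EPCAM and CDH1 were abundant in every group, while KRT14 had group means at or below 1.69 CPM in the 3 count tables.

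Markers of other cell types moved with several of the groups, and their part in the members' changes was not tested. In the knockout, 3 of 3 tested fibroblast markers were lower than in parental cells, with LUM at 15.8 and 364, COL1A1 at 451 and 1515 and PDGFRB at 88.5 and 125 normalized counts, and the endothelial marker CDH5 was lower too (30.3 and 142). The summed fibroblast markers ran from 525 to 597 normalized counts in knockout libraries and from 1934 to 2074 in parental libraries. CD68, a lysosomal protein abundant in macrophages, was higher in the knockout, with 10588 and 1338 normalized counts, and it is the leukocyte marker with a line in that table. In the count tables CD68 had group means of 0.694 to 1.37 CPM and did not pass, and CD3E, PTPRC and CD79A lay at or below 0.296 CPM, with CD3E at 0 in the ASO and UHRF1 tables. With the SMYD3 siRNA 3 of 4 fibroblast markers were higher, the summed level being 221 to 263 CPM with the siRNA and 135 to 158 CPM with its control. With the ASO 2 of 3 tested were lower (94.6 to 112 CPM summed with the ASO and 119 to 121 CPM with PBS). After UHRF1 depletion COL1A1 was higher and PDGFRB lower. The sum lay at 504 to 578 CPM with the UHRF1 siRNA and 118 to 119.6 CPM with its control. The endothelial markers CDH5 and VWF were higher there, and PECAM1 did not pass (-0.61). With the SMYD3 siRNA CDH5 was lower (-1.41), PECAM1 higher (1.40) and VWF did not pass. In the knockout VWF did not pass, and with the ASO no endothelial marker passed. The epithelial markers moved as well, with 4 of 6 higher and 1 lower in the knockout and 2 higher and none lower with the ASO. With the SMYD3 siRNA 2 were higher and 2 lower, and so too with the UHRF1 siRNA. CDH1 was called higher in all 4 comparisons, while KRT5 was lower with the SMYD3 siRNA (-0.28) and the UHRF1 siRNA (-0.37). The largest change was in KRT17 after UHRF1 depletion (3.55).

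Amino acid genes, stress response regulators and ER folding factors were all higher in the SMYD3 knockout line than in parental cells for most of their members. Of the 33 members tested, 27 were higher and 2 lower (adjusted p below 0.05, limma's moderated test), against 42.1% of all tested genes higher and 42.5% lower. The 29 called members stood beside 84.6% of all genes called, a number of calls near the background. In 29 members the groups did not overlap (85.8% of all genes), and 12 were called with a log2 fold change of 1 or more in size (36.5% of all genes). The median log2 fold change over the members was 0.83, against -0.02 over all genes. The medians were larger in the amino acid genes (11 of 12 higher, none lower, median 1.01) and the regulators (8 of 10 higher, 1 lower, median 1.10) than in the ER folding factors (7 of 9 higher, 1 lower, median 0.46). In bulk RNA, fewer cells with a transcript and less of it per cell cannot be told apart.

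SLC7A11 and PSAT1 had the largest changes among the amino acid genes. SLC7A11, the light chain of the cystine and glutamate exchanger, had 1841, 1992 and 1683 normalized counts in the knockout libraries, against 340.3, 396 and 383 in the parental libraries, a log2 fold change of 2.30 ± 0.07 (adjusted p = 2.48e-13). PSAT1, the aminotransferase of serine synthesis, had 12077, 12545 and 12024 normalized counts in the knockout libraries, against 3382, 3566 and 3262 in the parental libraries (1.84 ± 0.04, adjusted p = 4.3e-15). ASNS, which makes asparagine, had 3779.6, 3755 and 3702 normalized counts in the knockout libraries, against 1400.2, 1567 and 1518 in the parental libraries (1.33 ± 0.05, adjusted p = 8.26e-13). None of these 3 genes overlapped between the groups. The other serine enzymes PHGDH and PSPH rose by 0.71 and 0.83, and the mitochondrial folate enzymes SHMT2 and MTHFD2 by 1.51 and 1.09 on the log2 scale. Both partners of the amino acid carriers rose as well, SLC3A2, the shared heavy chain, by 0.93 and SLC7A5, the carrier of large neutral amino acids, by 0.80. ALDH18A1, a proline synthesis enzyme, rose by 1.10 and CTH, which makes cysteine, by 0.45. PCK2, the mitochondrial form of a gluconeogenic enzyme, had a value of 0.11 that did not pass (adjusted p = 0.065).

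Among the regulators and effectors, the RNA of ATF4 itself gave no call, while 8 of the 10 tested were higher. ATF4 had 14708, 14387 and 14781 normalized counts in the knockout libraries, against 14533, 14584 and 14303 in the parental libraries, and the groups overlapped (0.02 ± 0.03, adjusted p = 0.641). VLDLR, a lipoprotein receptor and known ATF4 target, had 482, 486 and 481 normalized counts in the knockout libraries, against 55.3, 61.6 and 51.6 in the parental libraries (3.08 ± 0.11, adjusted p = 6.35e-13). TRIB3, a pseudokinase that restrains ATF4 and DDIT3, had 4635, 4332 and 4433 normalized counts in the knockout libraries, against 850.1, 895 and 872 in the parental libraries (2.35 ± 0.04, adjusted p = 1.93e-15). Every knockout library exceeded every parental library for both. DDIT3, the transcription factor CHOP, had 1605, 1445 and 1501 normalized counts in the knockout libraries, against 853, 851 and 802 in the parental libraries (0.86 ± 0.05, adjusted p = 8.63e-10). SESN2, an inhibitor of mTORC1, rose by 1.99 and CHAC1, which degrades glutathione, by 1.98. PPP1R15A, which directs a phosphatase to eIF2α, rose by 1.33, and ATF5 and the mTORC1 inhibitor DDIT4 each by 0.72. CEBPB, a partner of ATF4, fell by 0.30 (adjusted p = 0.000187).

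HSPA5, the main Hsp70 chaperone of the ER, had 47807, 47654 and 46432 normalized counts in the knockout libraries, against 25759, 27340.2 and 26648 in the parental libraries (0.83 ± 0.03, adjusted p = 1.03e-12). DNAJB9, one of its co-chaperones, had 725, 674 and 671 normalized counts in the knockout libraries, against 296, 336 and 322 in the parental libraries (1.12 ± 0.07, adjusted p = 1.06e-09), and the disulfide isomerase PDIA6 had 38118, 38465 and 37565 normalized counts in the knockout libraries, against 19779, 20473 and 20600.1 in the parental libraries (0.91 ± 0.03, adjusted p = 2.5e-13). The knockout libraries were the higher ones for all 3. MANF rose by 0.80, PDIA4 by 0.46, the ER form of Hsp90, HSP90B1, by 0.31 and the lectin chaperone CALR by 0.28. CRELD2 fell by 0.30 (adjusted p = 0.000164) and SDF2L1 had a value of 0.07 that did not pass. XBP1 had 3512, 3484 and 3413 normalized counts in the knockout libraries, against 2122, 2175 and 2086 in the parental libraries (0.71 ± 0.04, adjusted p = 1.75e-10), but gene counts do not separate its spliced form. HERPUD1, a factor of ER-associated degradation, did not pass (0.01 ± 0.04, adjusted p = 0.849).

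Small changes in this comparison depend on the scaling. The main limma fit had 7136 genes higher and 7211 lower. With edgeR on read counts recovered from the normalized values, TMM factors gave 7011 and 7471 and a median over all genes of -0.05. Upper-quartile factors in edgeR moved that median to -0.31 and gave 5386 higher and 9117 lower. The members split into 25 higher and 6 lower, against 27 and 2 with TMM factors. With upper-quartile factors ATF4, PCK2, SDF2L1 and HERPUD1 were called lower, and HSP90B1 and CALR no longer passed. Mitochondrial genes took 4.84% of reads in knockout libraries and 15.3% in parental libraries, and the calls numbered 27 higher and 2 lower without those genes too. PSAT1, VLDLR and HSPA5 lie on chromosome 9, where 69.7% of 535 tested genes were above 0 with a median of 0.53. The part of this chromosome-wide shift in their values was not tested.

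**Figure D2:**
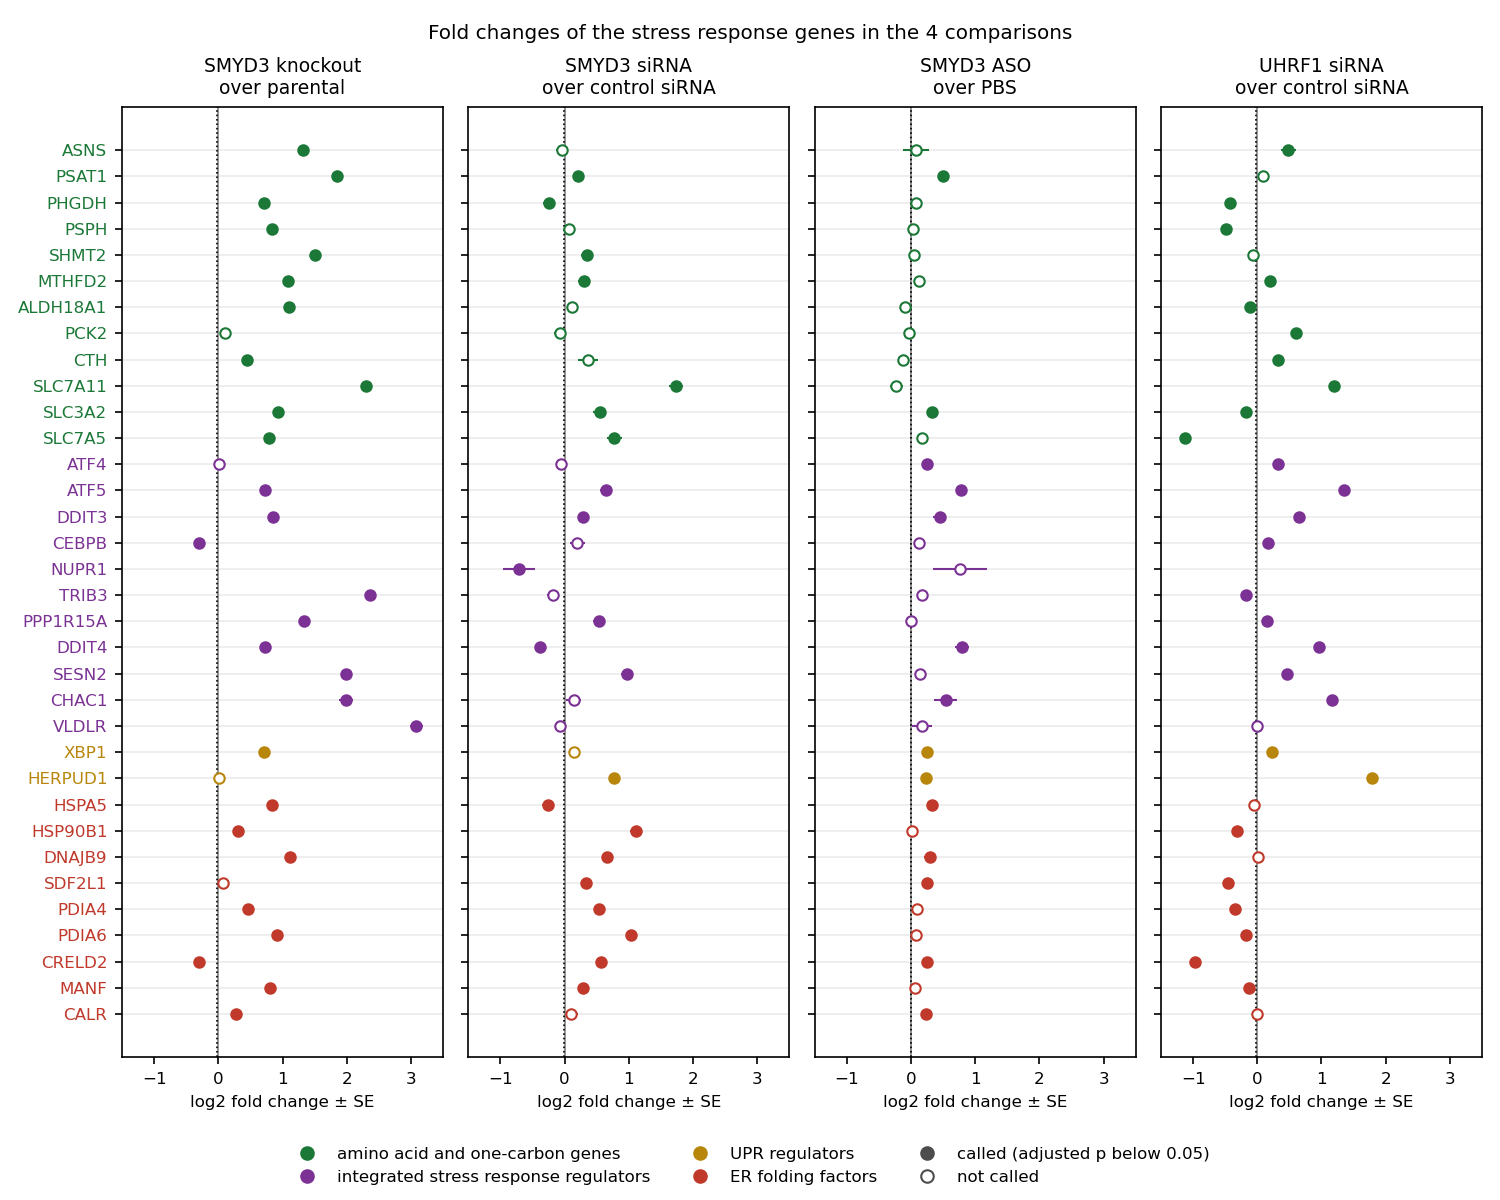
Log2 fold change of each member (horizontal axis, ± SE of the fit) in the 4 comparisons, depleted over control. Filled points passed at an adjusted p below 0.05, open points did not, and colours give the role. The knockout points run up to 3.08, for VLDLR, and NUPR1 has a point in 2 comparisons. The dotted line is the median of all genes tested.

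With the SMYD3 siRNA the order of the groups turned round, with ER folding factors ahead of amino acid genes. Of the 34 members, 18 were higher and 4 lower than with the control siRNA (edgeR quasi-likelihood test), against 24.2% of all genes higher and 24.4% lower, or 48.6% called. In 25 members the groups did not overlap (56.8% of all genes), and 3 were called with a change of 1 or more (7.85%). The median over the members was 0.29, against -0.02 over all genes. ER folding factors were higher in 7 of 9 and lower in 1, with a median of 0.54, and amino acid genes were higher in 6 of 12 and lower in 1, with a median of 0.25. The regulators had 4 of 11 higher and 2 lower, with a median of 0.14.

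HSP90B1 had 4883, 4873 and 4884 CPM in the SMYD3 siRNA libraries, against 2273, 2224 and 2265 in the control siRNA libraries, a log2 fold change of 1.11 ± 0.10 (adjusted p = 4.18e-07). PDIA6 had 2085, 2205 and 2127 CPM in the SMYD3 siRNA libraries, against 1096, 1037 and 987 in the control siRNA libraries (1.04 ± 0.09, adjusted p = 4.85e-07). The siRNA libraries were about level with one another and stood well above the controls for both. HSPA5 moved the other way, with 1426, 1478 and 1436 CPM in the SMYD3 siRNA libraries, against 1639, 1751 and 1819.6 in the control siRNA libraries (-0.26 ± 0.09, adjusted p = 0.024), a call lost without control replicate 2 or 3 or siRNA replicate 2 or 3 (adjusted p = 0.0586 to 0.127). HSPA5 and HSP90B1 both carry the ER stress element shown above. DNAJB9 rose by 0.67, CRELD2 by 0.57, PDIA4 by 0.54, SDF2L1 by 0.34 and MANF by 0.28, while CALR had a value of 0.11 that did not pass. HERPUD1 rose by 0.76 (adjusted p = 1.92e-06). XBP1 had 148, 146 and 139 CPM in the SMYD3 siRNA libraries, against 135, 127 and 127 in the control siRNA libraries, groups that did not overlap, but did not pass (0.15 ± 0.07, adjusted p = 0.0917).

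Of the amino acid genes, 3 carriers and 3 enzymes rose with the SMYD3 siRNA. SLC7A11 had 25.2, 23.0 and 23.5 CPM in the SMYD3 siRNA libraries, against 8.59, 6.34 and 6.55 in the control siRNA libraries (1.73 ± 0.11, adjusted p = 3.27e-08). SLC7A5 had 444, 580.2 and 577 CPM in the SMYD3 siRNA libraries, against 265, 358 and 313 in the control siRNA libraries (0.77 ± 0.12, adjusted p = 0.000116), and SLC3A2 rose by 0.54. For each of these 3 carriers the lowest siRNA library lay above the highest control library. ASNS had 26.2, 27.1 and 25.7 CPM in the SMYD3 siRNA libraries, against 28.3, 24.2 and 28.8 in the control siRNA libraries, with overlapping groups (-0.04 ± 0.08, adjusted p = 0.698). PHGDH fell by 0.25 (adjusted p = 0.0269) and PSAT1 rose by 0.20 (adjusted p = 0.0495), but neither call was firm. PHGDH was lost without control replicate 1 or 2 or siRNA replicate 1 or 3 (adjusted p = 0.0549 to 0.110), and PSAT1 without control replicate 2 or 3 or siRNA replicate 2 or 3 (0.0733 to 0.241), with upper-quartile factors (0.0940) and without the low-value filter (0.0954). SHMT2 rose by 0.35 and MTHFD2 by 0.30 (lost without control replicate 2, adjusted p = 0.0536), while ALDH18A1, PSPH and PCK2 had values of 0.11, 0.07 and -0.08 that did not pass. CTH had 0.36 and did not pass either, but did with DESeq2, without the low-value filter, with a replicate block, and without control replicate 1 or siRNA replicate 3 (adjusted p = 0.00239 to 0.0476).

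SESN2 had 50.8, 62.1 and 62.8 CPM in the SMYD3 siRNA libraries, against 31.2, 31.2 and 27.4 in the control siRNA libraries (0.97 ± 0.09, adjusted p = 1.24e-06). ATF4 had 378, 413 and 403 CPM in the SMYD3 siRNA libraries, against 393, 424 and 427 in the control siRNA libraries, overlapping groups that did not pass (-0.06 ± 0.08, adjusted p = 0.56). DDIT3 had 129, 125 and 131 CPM in the SMYD3 siRNA libraries, against 92.9, 107 and 115 in the control siRNA libraries (0.29 ± 0.08, adjusted p = 0.00948). The other regulators and effectors split. ATF5 and PPP1R15A rose by 0.65 and 0.53, and DDIT4 fell by 0.39 (adjusted p = 0.00106). TRIB3, CHAC1, VLDLR and CEBPB had values of -0.18, 0.14, -0.07 and 0.20 that did not pass. NUPR1, a stress-induced chromatin protein, was called lower from very few reads, 18, 19 and 18 with the siRNA against 43, 20 and 43 with the control (-0.71 ± 0.26, adjusted p = 0.0317). That call was lost with DESeq2 and without any 1 library other than control replicate 2 (adjusted p = 0.0531 to 0.143). Mitochondrial genes took 6.15% of reads with the siRNA and 8.08% with the control, and the calls without those genes numbered 18 and 4 as well.

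The ASO gave smaller changes, and the members that passed were all higher than with PBS. Of the 34 members 14 were higher and none lower, against 11.3% of all genes higher and 10.3% lower, or 21.7% called. In 26 members the groups did not overlap (61.7% of all genes), and none was called with a change of 1 or more (1.55%). The median over the members was 0.17, against -0.00 over all genes. Regulators were higher in 5 of 11 (median 0.25), ER folding factors in 5 of 9 (median 0.24) and amino acid genes in 2 of 12 (median 0.06), and both XBP1 and HERPUD1 rose. With DESeq2 the members numbered 10 higher, and without 1 library 10 to 15 were called.

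DDIT4 had 219.9 and 199 CPM in the ASO libraries, against 139.6 and 102 in the PBS libraries (0.79 ± 0.11, adjusted p = 0.000379). ATF5, a transcription factor related to ATF4, had 23.2 and 25.3 CPM in the ASO libraries, against 13.96 and 14.3 in the PBS libraries (0.78 ± 0.08, adjusted p = 3.14e-05). Both ASO libraries lay above both PBS libraries for each gene. ATF4 had 482 and 477 CPM in the ASO libraries, against 400.0 and 406 in the PBS libraries (0.25 ± 0.06, adjusted p = 0.00669), a small but separated rise. DDIT3 had 91.5 and 69.4 CPM in the ASO libraries, against 59.8 and 58.5 in the PBS libraries (0.44 ± 0.10, adjusted p = 0.00726), with 1 ASO library well above the other. DESeq2 did not call DDIT3 (adjusted p = 0.0970). CHAC1 rose by 0.54 (adjusted p = 0.0417), a call lost with DESeq2 (adjusted p = 0.160) and without PBS replicate 1 or 2 or ASO replicate 2 (0.0932 to 0.245).

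PSAT1 had 128 and 153 CPM in the ASO libraries, against 94.9 and 104 in the PBS libraries (0.50 ± 0.08, adjusted p = 0.000774). SLC3A2 had 285 and 289.6 CPM in the ASO libraries, against 223 and 235 in the PBS libraries (0.33 ± 0.06, adjusted p = 0.00148). They were the amino acid genes that passed, and for both the ASO libraries were the higher ones. SLC7A11 had 11.8 and 13.7 CPM in the ASO libraries, against 15.8 and 14.1 in the PBS libraries, a value of -0.23 ± 0.10 that did not pass (adjusted p = 0.129). ASNS had 1.79 and 1.94 CPM in the ASO libraries, against 1.66 and 1.88 in the PBS libraries and did not pass either (0.07 ± 0.20, adjusted p = 0.837). In the annotation used here the gene AC079781.5 covers 49.3% of the exon bases of ASNS on the same strand, so its reads may be split or dropped in counting, which limits every ASNS value given.

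HSPA5 had 1979 and 1909 CPM in the ASO libraries, against 1533 and 1556 in the PBS libraries (0.33 ± 0.06, adjusted p = 0.00191). DNAJB9 had 19.5 and 19.7 CPM in the ASO libraries, against 17.5 and 14.5 in the PBS libraries (0.29 ± 0.09, adjusted p = 0.0407), a call lost with DESeq2 (adjusted p = 0.101), with upper-quartile factors (0.0565) and without PBS replicate 2 (0.306). XBP1 had 146 and 144 CPM in the ASO libraries, against 124 and 119.6 in the PBS libraries (0.25 ± 0.05, adjusted p = 0.00567). In each case both ASO libraries exceeded both PBS libraries. CRELD2, SDF2L1, CALR and HERPUD1 rose by 0.24, 0.24, 0.24 and 0.24, and the last 3 calls were each lost without ASO replicate 1 or PBS replicate 2 (adjusted p = 0.0588 to 0.218), that of SDF2L1 also with DESeq2 (0.0774). HSP90B1 and PDIA6, which led with the siRNA, had values of 0.02 and 0.09 that did not pass.

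After UHRF1 depletion, regulators and ER folding factors parted. Of the 33 members tested, 15 were higher and 12 lower, against 32% of all genes higher and 32.7% lower, or 64.7% called. In 27 members the groups did not overlap (68.1% of all genes), and 5 were called with a change of 1 or more (17.8%). The median over the members was 0.01, against -0.01 over all genes. The integrated stress response regulators were higher in 8 of 10 and lower in 1 (median 0.39). None of the 9 ER folding factors was higher and 6 were lower (median -0.18). The amino acid genes divided into 5 higher and 5 lower of 12 (median 0.02).

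ATF5 had 77.9, 84.0 and 79.8 CPM in the UHRF1 siRNA libraries, against 31.3, 34.2 and 28.9 in the control siRNA libraries (1.36 ± 0.06, adjusted p = 3.13e-27). CHAC1 had 28.7, 32.0 and 29.9 CPM in the UHRF1 siRNA libraries, against 12.7, 15.3 and 12.3 in the control siRNA libraries (1.17 ± 0.08, adjusted p = 2.74e-19). Every siRNA library lay far above every control library for both. ATF4 had 406, 451 and 443 CPM in the UHRF1 siRNA libraries, against 353, 348 and 343 in the control siRNA libraries (0.32 ± 0.05, adjusted p = 1.37e-07). DDIT3 had 36.1, 40.8 and 38.0 CPM in the UHRF1 siRNA libraries, against 22.6, 26.7 and 23.9 in the control siRNA libraries (0.65 ± 0.06, adjusted p = 7.7e-13), again with no overlap between groups. DDIT4 rose by 0.96, SESN2 by 0.47, CEBPB by 0.16 and PPP1R15A by 0.15, the last of which was lost without control replicate 1 (adjusted p = 0.110). TRIB3 fell by 0.17 (adjusted p = 0.00347), and VLDLR had a value of -0.00 that did not pass. NUPR1 had 6, 22 and 22 reads with the siRNA and 2, 0 and 4 with the control, too few to be tested.

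The carriers of amino acids moved in opposite directions. SLC7A11 had 239, 254 and 249 CPM in the UHRF1 siRNA libraries, against 105, 108 and 110.4 in the control siRNA libraries (1.20 ± 0.05, adjusted p = 5.21e-28). SLC7A5 had 413, 416 and 424 CPM in the UHRF1 siRNA libraries, against 884, 949 and 892 in the control siRNA libraries (-1.12 ± 0.05, adjusted p = 1.07e-26). The UHRF1 siRNA libraries thus held the higher SLC7A11 values and the lower SLC7A5 values without overlap, and SLC3A2, the heavy chain of both, fell by 0.17. ASNS had 9.36, 7.29 and 7.80 CPM in the UHRF1 siRNA libraries, against 4.58, 6.75 and 6.15 in the control siRNA libraries (0.48 ± 0.12, adjusted p = 0.00039). PCK2, CTH and MTHFD2 rose by 0.60, 0.32 and 0.20, while PSPH, PHGDH and ALDH18A1 fell by 0.48, 0.43 and 0.12. The ALDH18A1 call was lost without control replicate 2 or 3 or siRNA replicate 2 or 3 (adjusted p = 0.0631 to 0.145), and also with a replicate block (0.0527) and without the low-value filter (0.0590). PSAT1 and SHMT2 had values of 0.10 and -0.06 that did not pass.

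HERPUD1 had 265, 279 and 277 CPM in the UHRF1 siRNA libraries, against 80.0, 81.8 and 75.6 in the control siRNA libraries (1.79 ± 0.05, adjusted p = 2.65e-35). CRELD2, an ER-resident stress protein, had 47.1, 47.1 and 46.2 CPM in the UHRF1 siRNA libraries, against 93.5, 92.6 and 87.5 in the control siRNA libraries (-0.96 ± 0.05, adjusted p = 8.4e-23). Members with each promoter motif were called in both directions here, and a link between motif and direction was not tested. Of the 4 members with the C/EBP-ATF core 3 were higher and 1, SLC3A2, was lower, and of the 6 with the ER stress element 3 were lower, XBP1 was higher and 2 did not pass. The second form of that element is in HERPUD1, which was higher, and in SDF2L1, which was lower. In the knockout, SMYD3 siRNA and ASO comparisons, 3, 2 and 3 members with the C/EBP-ATF core were higher and none lower. With the ER stress element 5, 3 and 4 were higher and 1, 1 and 0 lower. With its second form 0, 2 and 2 were higher and none lower. HSPA5 had 3641, 3412 and 3463 CPM in the UHRF1 siRNA libraries, against 3752, 3697 and 3438 in the control siRNA libraries, with overlapping groups (-0.05 ± 0.05, adjusted p = 0.393). SDF2L1, PDIA4, HSP90B1, PDIA6 and MANF fell by 0.46, 0.35, 0.31, 0.18 and 0.13, and DNAJB9 and CALR had values of 0.01 and -0.01 that did not pass. XBP1 had 179, 189 and 191 CPM in the UHRF1 siRNA libraries, against 159, 167 and 153 in the control siRNA libraries (0.22 ± 0.05, adjusted p = 8.26e-05).

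**Figure D3:**
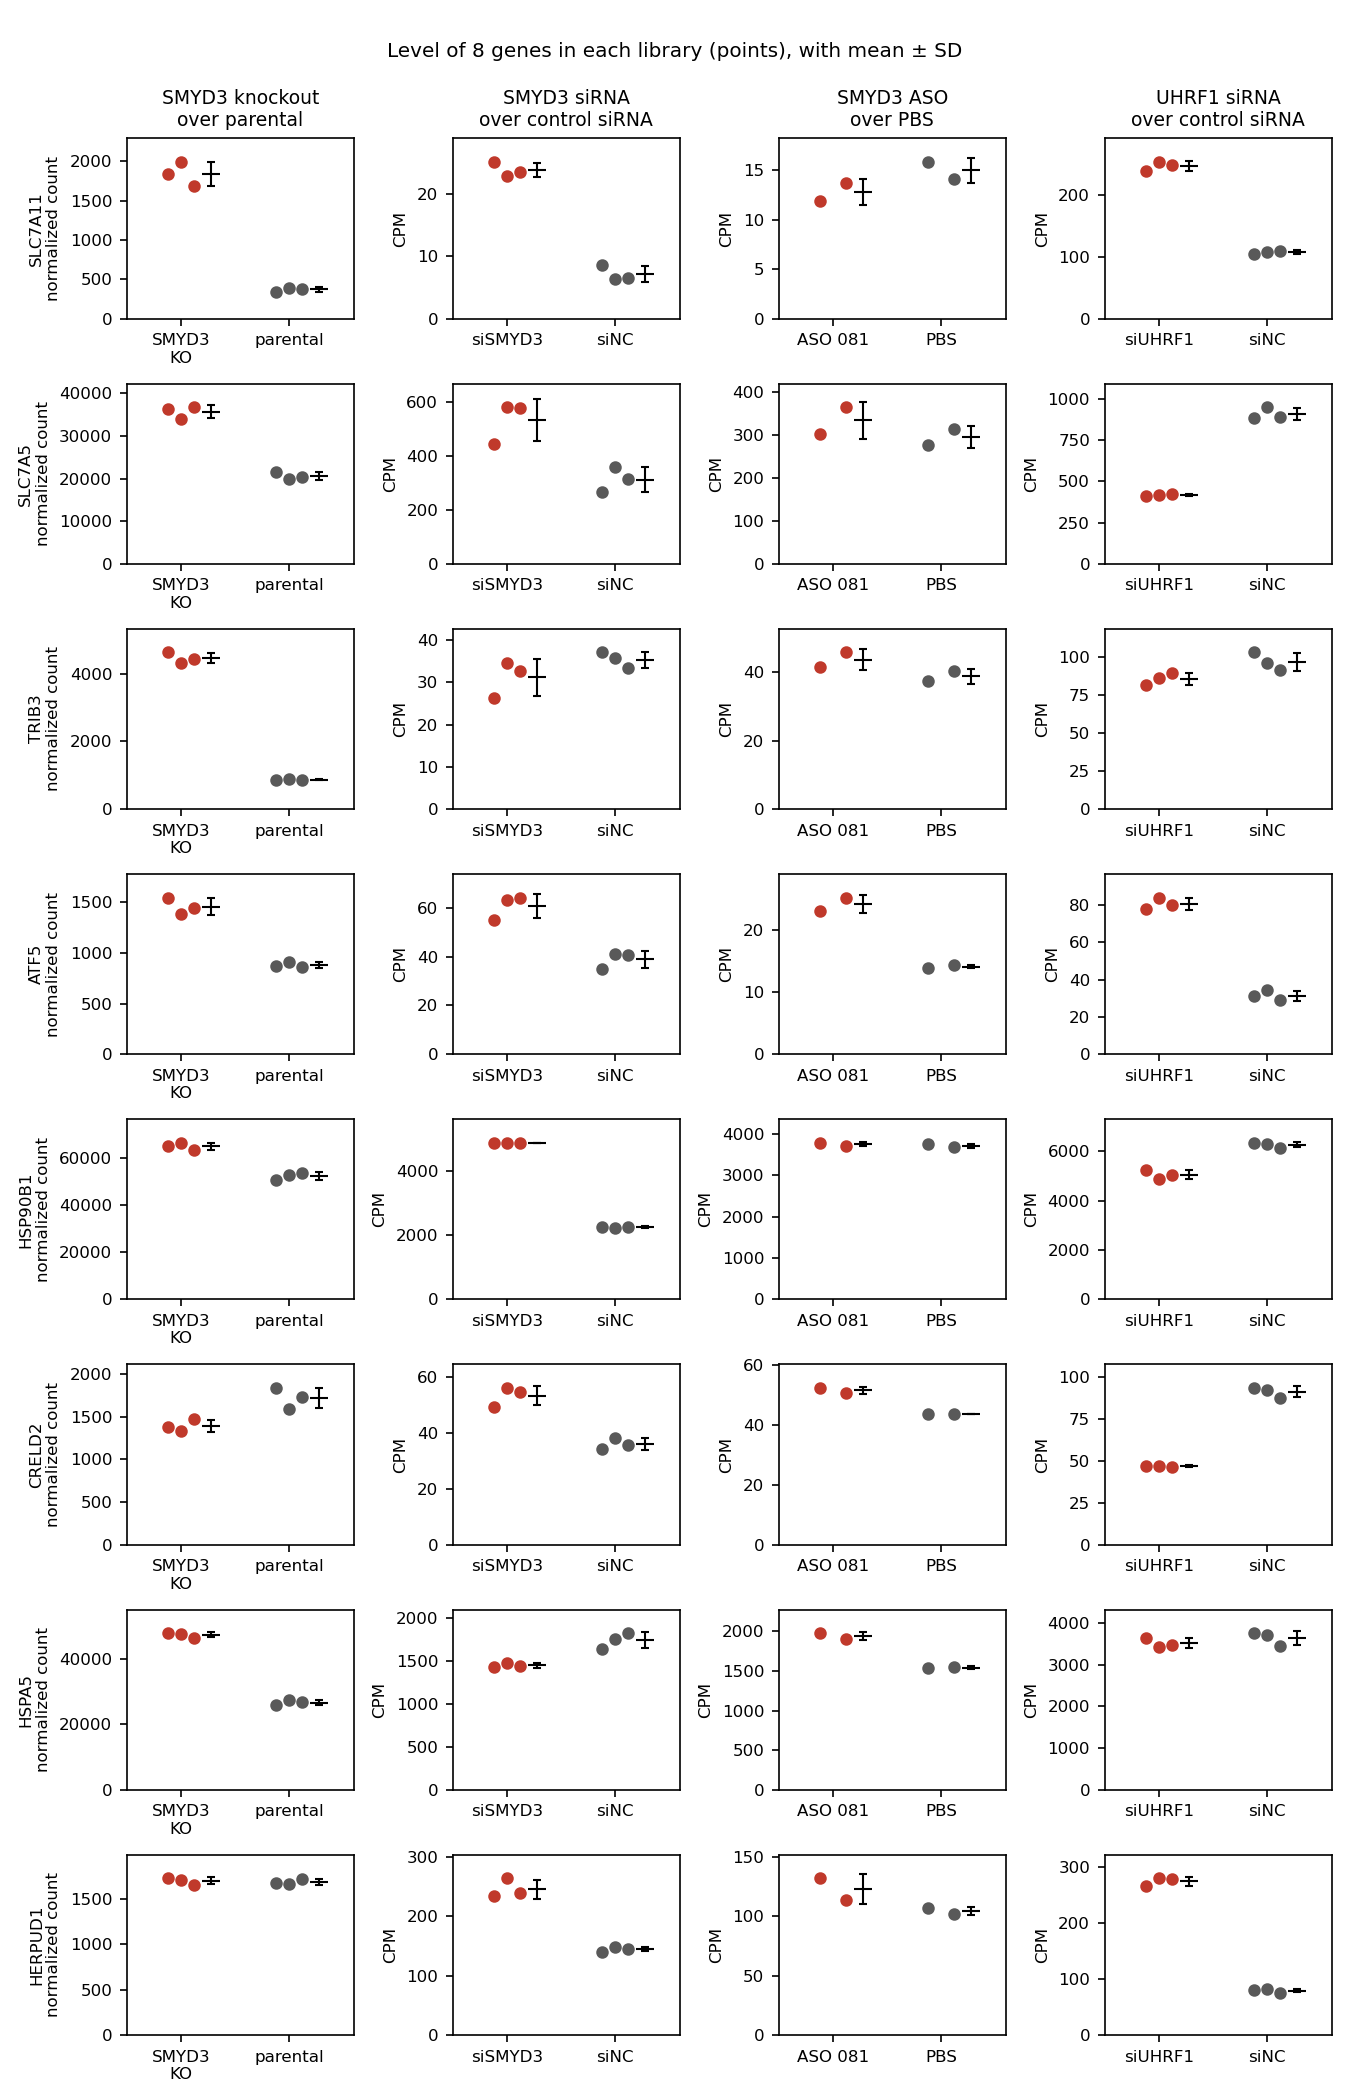
Level of 8 members in each library (points), with the group mean ± SD beside them, depleted libraries in red and left, control libraries in grey and right. The vertical axis starts at 0 and gives the deposited normalized count for the knockout table and CPM for the others. HERPUD1 averages 274 CPM with the UHRF1 siRNA and 79.1 CPM with its control, while CRELD2 averages 46.8 and 91.2 CPM.

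The contrast between amino acid genes and ER folding factors was also taken library by library, as the mean log2(CPM + 1) of the first list minus that of the second. It lay between -0.85 and -0.81 in the knockout libraries and between -1.42 and -1.39 in the parental libraries, so the balance was shifted to amino acid genes in the knockout. With the SMYD3 siRNA it lay between -2.63 and -2.54, below the control siRNA libraries at -2.46 to -2.37. The ASO libraries had -2.45 and -2.31 and the PBS libraries -2.32 and -2.22, which overlap. The UHRF1 siRNA libraries had -2.31 to -2.26, above their controls at -2.61 to -2.59. The difference between the median fold changes of the lists was 0.55 in the knockout, -0.29 with the SMYD3 siRNA, -0.18 with the ASO and 0.20 with the UHRF1 siRNA. The positive values came from a larger rise of amino acid genes in the knockout and from lower ER folding factors after UHRF1 depletion.

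**Figure D4:**
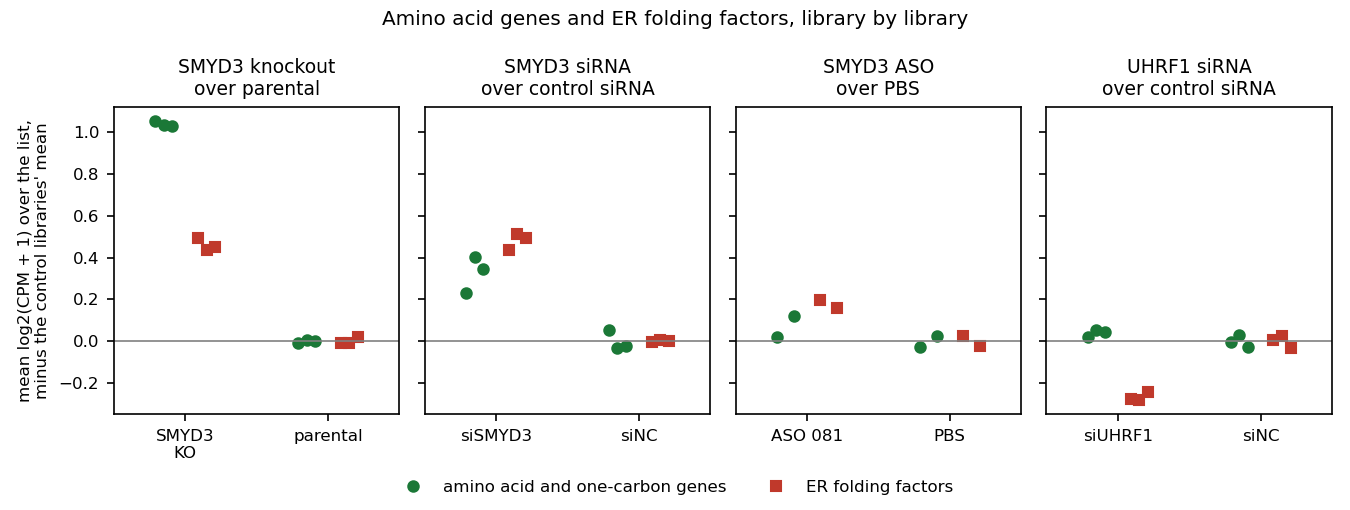
Mean log2(CPM + 1) over the 12 amino acid genes (green circles) and the 9 ER folding factors (red squares) in each library, minus the mean of the control libraries of the same table, depleted libraries left. Amino acid genes stand above ER folding factors in the knockout libraries, below them in the SMYD3 siRNA and ASO libraries, and near 0 with ER folding factors below 0 in the UHRF1 siRNA libraries.

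Across the 3 ways of lowering SMYD3, 5 of 33 members tested in each were higher in each: ATF5, DDIT3, PSAT1, SLC3A2 and DNAJB9. They make up 15.2% of these members, and 3.39% of all genes tested in the 3 comparisons were higher in each. ATF5 and SLC3A2 kept each of their calls under every alternative run, while DDIT3 and DNAJB9 with the ASO and PSAT1 with the SMYD3 siRNA lost theirs under the settings given above. ATF5 and DDIT3 were also higher after UHRF1 depletion, which is 6.06% of the members against 1.91% of all genes higher in all 4 comparisons. Another 4 members, HSPA5, CRELD2, DDIT4 and PHGDH, were called in both directions among the SMYD3 comparisons, or 12.1% against 25.6% of all genes. No member was lower in all 3, against 2.06% of all genes.

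Differences between comparisons were tested directly, each effect being depleted over its own control. Between the SMYD3 siRNA and the ASO, 11 of 34 members had a larger and 6 a smaller log2 change with the siRNA, and 32% of all genes differed. SLC7A11 differed by 1.96 ± 0.14 (adjusted p = 1.17e-11), HSP90B1 by 1.10 ± 0.10 (adjusted p = 2.97e-09) and DDIT4 by -1.18 ± 0.13 (adjusted p = 2.69e-08). Both agents lowered SMYD3 RNA, but they differ in kind and in control. The siRNA went with higher HSP90B1 and SLC7A11 and the ASO with higher DDIT4. Between the SMYD3 siRNA and the UHRF1 siRNA, 15 members were larger and 9 smaller with the first, with 48.9% of all genes differing. SLC7A5 differed by 1.90 ± 0.15 (adjusted p = 2.7e-10) and CRELD2 by 1.54 ± 0.09 (adjusted p = 1.31e-14). The 7 ER folding factors that differed all did so upward with the SMYD3 siRNA. Between the ASO and the UHRF1 siRNA, 12 members were larger and 7 smaller with the ASO (45.5% of all genes), with HERPUD1 at -1.55 ± 0.10 (adjusted p = 4.72e-13) and SLC7A11 at -1.42 ± 0.13 (adjusted p = 2.68e-10).

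Set against the knockout on log2(CPM + 1), with limma, the amino acid genes rose further in the knockout than elsewhere. Of the 12, 9 had a larger change than with the SMYD3 siRNA, 11 than with the ASO and 10 than with the UHRF1 siRNA, while 77.2%, 74% and 81% of all genes differed in either direction. Over the members, 20 of 33 were larger in the knockout and 7 smaller than with the SMYD3 siRNA, 24 and 5 than with the ASO, and 24 and 6 than with the UHRF1 siRNA. ER folding factors were divided between knockout and SMYD3 siRNA, with 3 larger and 5 smaller of 9. VLDLR exceeded its siRNA change by 2.57 ± 0.11 (adjusted p = 1.39e-17) and TRIB3 by 2.41 ± 0.10 (adjusted p = 4.75e-18). These genes were also larger in the knockout than with the ASO or the UHRF1 siRNA, while HERPUD1 was smaller than with the UHRF1 siRNA, with a difference of -1.89 ± 0.08 (adjusted p = 2.19e-18).

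Other genes of the pathways were counted in the same way, to be read beside the shares of all genes called. In the knockout 42.1% of all genes were higher and 42.5% lower, and with the SMYD3 siRNA 24.2% and 24.4%. In the knockout, 12 of 12 aminoacyl-tRNA synthetases were higher, led by IARS (2.02 ± 0.04) and SARS (1.87 ± 0.04), and 9 of 10 stress sensors and their partners were higher, led by ERN1 (1.79 ± 0.06), which encodes IRE1, and MBTPS2 (1.46 ± 0.08), a protease that activates ATF6. Further ATF4 targets were higher in 14 of 18 and lower in 2, with STC2, a secreted glycoprotein, averaging 3219 ± 69.3 normalized counts in the knockout libraries and 417 ± 30.4 in the parental libraries (2.95 ± 0.06), and SLC1A4, a neutral amino acid carrier, at 1.79 ± 0.07. Further ER genes were higher in 14 of 19 and lower in 4, with the chaperone HYOU1 at 1.79 ± 0.03 and the oxidase ERO1B at -1.74 ± 0.15. With the SMYD3 siRNA, 13 of 19 ER genes were higher and 4 lower, led by SSR1 (0.99 ± 0.07), a subunit of the translocon-associated complex, and CANX (0.90 ± 0.09), a lectin chaperone. Synthetases were higher in 7 of 12 (EPRS, 0.56 ± 0.08, and AARS, 0.52 ± 0.08) and sensors in 7 of 10 with 1 lower (ERN1, 0.68 ± 0.09, and ATF6, 0.53 ± 0.08). ATF4 targets split into 8 higher and 5 lower of 18, among them the glycine carrier SLC6A9 at 0.97 ± 0.09 and the translation inhibitor EIF4EBP1 at -1.24 ± 0.09.

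The shares of all genes were 11.3% higher and 10.3% lower with the ASO, and 32% and 32.7% with the UHRF1 siRNA. With the ASO, 8 of 19 ER genes were higher and 1 lower, led by DNAJB11 (0.37 ± 0.05) and DERL2 (0.32 ± 0.06). Of the ATF4 targets, 6 of 18 were higher and 2 lower, led by STC2 (0.90 ± 0.10) and SLC6A9 (0.56 ± 0.09). The synthetases had 2 of 12 higher and 1 lower, with WARS, which interferons also induce, at 0.87 ± 0.06 and TARS at 0.30 ± 0.06. Sensors were higher in 1 of 10, the interferon-induced kinase EIF2AK2 (0.38 ± 0.06), and lower in 3, among them ERN1 (-0.28 ± 0.08). The synthetases and sensors higher with the ASO were few, near the share of all genes higher. After UHRF1 depletion, 10 of 12 synthetases were higher, with WARS averaging 865 ± 10.2 CPM in the UHRF1 siRNA libraries and 239 ± 6.03 in the control siRNA libraries (1.85 ± 0.05) and GARS at 0.66 ± 0.05. ATF4 targets had 10 of 18 higher and 7 lower, led by ATF3 (1.52 ± 0.06) and JDP2 (1.34 ± 0.05), both transcription factors. The further ER genes leaned the same way as the folding factors, with 5 of 19 higher and 10 lower, led by the isomerase PDIA5 (-1.58 ± 0.06) and TXNDC5 (-1.48 ± 0.10). Sensors were higher in 5 of 10, led by EIF2AK3 (0.63 ± 0.05), which encodes PERK, and ATF6 (0.29 ± 0.05).

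Per length, ER chaperones led the members in abundance. In parental cells CALR had 589 ± 16.8 FPKM (CPM per kilobase of exon, SD, n = 3), HSP90B1 340 ± 10.3 FPKM and HSPA5 207 ± 6.14 FPKM, and these 3 levels did not overlap. ATF4 followed at 176 ± 1.74 FPKM. At the other end were SLC7A11 at 1.18 ± 0.0924 FPKM and VLDLR at 0.183 ± 0.0163 FPKM, so the large folds of these genes start from low levels. In the control siRNA libraries of the UHRF1 table, HSP90B1 (1334 ± 22.7 FPKM) led CALR (1226 ± 61.5 FPKM), and their ranges did not overlap. Exons of some members are also covered by genes on the opposite strand (41.2% of DDIT4, 33.6% of MTHFD2, 31.6% of DDIT3 and 25.2% of PDIA6). The counting tool is not given in the sources used here, so how reads of such bases were assigned is not known.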

How the data were processed

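The submitters' processing notes name the hg38 build, bcl2fastq and Bowtie. Versions, counting tool and annotation: not given in the sources used here. Both siRNA tables and the ASO table hold whole-number counts as deposited. The deposited values of the knockout table are a signal: gene counts scaled by the authors with 1 factor per library; 100% of its values are whole reads within 0.01 after division by that step. Symbols turned into dates (24) were restored by Ensembl identifier, and 23588 lines without a symbol in the SMYD3 siRNA table (0.849% to 0.917% of its reads) were named from GENCODE release 29 where it had them. Lines of 1 symbol were summed.

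For count tables the test was edgeR 4.0.16 (filterByExpr, TMM, robust quasi-likelihood), and for the knockout table limma 3.58.1 (trend, robust) on log2(value + 1) for values of 10 or more in at least 3 libraries. Its fold changes are on that scale. P-values were two-sided and Benjamini-Hochberg adjusted over all genes of a table, and below 0.05 counts as called. Printed CPM use TMM-scaled totals. Differences between count tables were tested with edgeR on 16 libraries, and against the knockout with limma on log2(CPM + 1) over 22. DESeq2 1.42.0, other scalings and filters, a replicate block and fits without 1 library were alternatives. Scripts were tested on simulated data. R was version 4.3.3.

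The members and lists were chosen with earlier results of these data known. Per-library values are printed for ATF4, DDIT3, ASNS, HSPA5 and XBP1 and, in each comparison, for the 2 called members with the largest change among amino acid genes, regulators, and ER folding genes with XBP1 and HERPUD1, and a few others were added after their values were seen. From each other list the 2 largest called changes are named, and from each pair of comparisons the 3 largest. Within every group the libraries differed by more than sampling noise. The study calls them biological replicates, and the labels tie no replicate number to a day or batch, so p-values measure the spread between these libraries. The correlation of deviations from the group mean between same-numbered libraries ran from -0.0811 to 0.233. With the SMYD3 siRNA it was 0.233 and 0.232 for replicates 1 and 2, against -0.290 and -0.191 when these were crossed. The main fits took no pairs, because the labels give none, and whether the numbers mark pairs was not tested. With the ASO a replicate block gave 3477 genes higher and 3296 lower, against 2068 and 1880 without it.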

Additional observations from a re-analysis of the deposited data

Results flagged for a closer look

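Each value here is a difference of log2 fold changes (± SE) between 2 comparisons that passed the test of that difference, and they are the 3 largest among the members in each pair. Between the SMYD3 siRNA and the ASO, SLC7A11 differed by 1.96 ± 0.14 (adjusted p = 1.17e-11), DDIT4 by -1.18 ± 0.13 (adjusted p = 2.69e-08) and HSP90B1 by 1.10 ± 0.10 (adjusted p = 2.97e-09). Between the SMYD3 siRNA and the UHRF1 siRNA, NUPR1 differed by -3.77 ± 0.74 (adjusted p = 8.72e-05), SLC7A5 by 1.90 ± 0.15 (adjusted p = 2.7e-10) and CRELD2 by 1.54 ± 0.09 (adjusted p = 1.31e-14). Between the ASO and the UHRF1 siRNA, NUPR1 differed by -2.30 ± 0.88 (adjusted p = 0.0341), HERPUD1 by -1.55 ± 0.10 (adjusted p = 4.72e-13) and SLC7A11 by -1.42 ± 0.13 (adjusted p = 2.68e-10). Both NUPR1 values rest on 0 to 43 reads per library, and the second lost its call in 7 of 10 fits without 1 library (adjusted p = 0.0566 to 0.159).

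Between the knockout and the SMYD3 siRNA, VLDLR differed by 2.57 ± 0.11 (adjusted p = 1.39e-17), TRIB3 by 2.41 ± 0.10 (adjusted p = 4.75e-18) and CHAC1 by 1.57 ± 0.14 (adjusted p = 2.87e-11). Between the knockout and the ASO, VLDLR differed by 2.37 ± 0.13 (adjusted p = 2.3e-15), SLC7A11 by 2.33 ± 0.13 (adjusted p = 3.71e-15) and TRIB3 by 2.06 ± 0.11 (adjusted p = 3.78e-15). Between the knockout and the UHRF1 siRNA, VLDLR differed by 2.48 ± 0.11 (adjusted p = 1.2e-17), TRIB3 by 2.36 ± 0.10 (adjusted p = 2.72e-18) and HERPUD1 by -1.89 ± 0.08 (adjusted p = 2.19e-18). On log2(CPM + 1), low genes such as VLDLR show a smaller change than in the table's own fit, where VLDLR had 3.08 ± 0.11 in the knockout. SMYD3 RNA and UHRF1 RNA were both lower in each of the siRNA comparisons, so their parts there cannot be told apart.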

How the results depend on the processing

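Of 1664 values of individual members computed under alternative settings, 1582 kept their direction and side of the threshold, 52 no longer passed, 26 newly passed and 4 reversed. Differences between list medians are not among them. Fits without mitochondrial genes are, though the ASO and UHRF1 tables held no reads of such genes, so those fits repeat the main ones. The reversals came in the knockout with upper-quartile factors on the recovered reads, which gave ATF4 a log2 fold change of -0.26, PCK2 -0.17, SDF2L1 -0.21 and HERPUD1 -0.27; the median of all genes moved to -0.31 there. The medians of amino acid genes and ER folding factors were 0.73 and 0.18 under that scaling. Their difference was 0.55, but 1 factor per library moves all genes alike, so the difference could hardly have moved. Without 1 library in turn it lay between 0.489 and 0.575 in the knockout, between -0.367 and -0.226 for the SMYD3 siRNA, between -0.242 and -0.0576 for the ASO, and between 0.169 and 0.233 for the UHRF1 siRNA. For the ASO it was -0.0576 without PBS replicate 2 and -0.0700 without ASO replicate 1. Some members that had not passed did so without 1 library: SLC7A5 (0.30), TRIB3 (0.24), MTHFD2 (0.20) and VLDLR (0.39) without ASO replicate 1, SLC7A5 (0.28) without PBS replicate 2, SLC7A11 (-0.33) and CEBPB (0.22) without ASO replicate 2, CEBPB (0.36) without SMYD3 siRNA replicate 1, CTH (0.53 and 0.50) without control replicate 1 or siRNA replicate 3 of the SMYD3 siRNA table, PCK2 (0.15) and SDF2L1 (0.14) without knockout replicate 2, PCK2 (0.15) without parental replicate 3, and PSAT1 (0.13 and 0.14) without control or UHRF1 siRNA replicate 1. A replicate block, for numbers the labels tie to nothing, gave 28 higher and 2 lower members in the knockout, 19 and 4 with the SMYD3 siRNA, 19 and 1 with the ASO and 15 and 11 with the UHRF1 siRNA, and the median differences with the block were 0.55, -0.28, -0.18 and 0.20. Without a filter on low values, 22 members were called with the SMYD3 siRNA, 15 with the ASO and 27 with the UHRF1 siRNA. CPM from plain library totals, an alternative chosen after seeing the data, left 26 effect differences between the knockout and the SMYD3 siRNA. NUPR1 in the count tables and CHAC1 and ASNS in the ASO table had few reads, which limits their values.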

Other observations

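The control groups of the 3 count tables differed in several members, though all were HN-6 cells given interferon-β. SLC7A11 had 105, 108 and 110.4 CPM in the control siRNA libraries of the UHRF1 table, 8.59, 6.34 and 6.55 in those of the SMYD3 table and 15.8 and 14.1 in the PBS libraries. SLC7A5 had 884, 949 and 892, 265, 358 and 313 and 278 and 314 CPM in the same groups. HSPA5 had 3752, 3697 and 3438, 1639, 1751 and 1819.6 and 1533 and 1556 CPM, and DDIT3 had 22.6, 26.7 and 23.9, 92.9, 107 and 115 and 59.8 and 58.5 CPM. The tables were counted and scaled separately, and these levels were not tested against each other.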
